A study of Mus musculus with 4 samples.

Results

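Bone morphogenetic protein (BMP) signalling was described in primary neural stem/progenitor cells (NSCs) through 10 genes, read from 1 deposited table of 18169 rows by gene name. These were the ligand genes Bmp2, Bmp3, Bmp4 and Bmp7, the receptor genes Bmpr1a, Bmpr1b and Bmpr2, the intracellular genes Smad1 and Smad6, and Nog, which encodes a secreted antagonist. Bmp3 was chosen because its level went from near 0 to a clear value in these same samples, so its difference between genotypes is given as a description without a test. The other 9 genes were chosen by their roles in the pathway, with earlier results of these data known. All 10 were found, each in 1 row.

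The study sequenced polyadenylated RNA from NSCs of 2 wild-type (+/+) and 2 Chd5-/- C57BL/6 mice. Chd5 encodes a chromatin remodeler, and the labels give the genotype without naming the allele. Each culture came from the periventricular region of 1 newborn brain and was kept undifferentiated, in proliferation medium with epidermal growth factor and fibroblast growth factor 2. The growth protocol gives postnatal day 1 for all cultures, whereas the age entries read 1 and 2 days after birth for +/+ and 3 and 4 days for Chd5-/-, so that by these entries age and genotype cannot be told apart. The unit is TPM, a transcript abundance corrected for transcript length and scaled to the same total in each sample, so levels of different genes can be compared. TPM keeps no read number, so the depth is unknown, and precision rests on the 2 samples per genotype. In bulk RNA, fewer cells of a type and less RNA per cell cannot be told apart.

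BMPs are secreted ligands of the TGF-beta superfamily. A ligand dimer brings type I receptors (the products of Bmpr1a and Bmpr1b) together with type II receptors such as that of Bmpr2, the type I receptor phosphorylates Smad1, Smad5 and Smad9, and these enter the nucleus with Smad4 and switch on targets, the Id genes above all. Noggin and the chordin family bind ligands outside the cell, and Smad6 and Smad7 block the pathway inside it. In neural progenitors BMP signalling is known to restrain neuronal differentiation and to favour astrocytes. BMP3 is an atypical member that is known to oppose other BMPs and to act through activin type II receptors.

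The levels of Chd5 were 0.39 and 0.37 TPM in +/+ versus 0.06 and 0.04 TPM in Chd5-/- NSCs. The direction was that of the labels, but all 4 values were under 1 TPM and untested, so they are a weak check of them. The Chd5-/- samples were less alike (rank correlation 0.904 over 12576 rows) than the +/+ samples (0.974). Summed TPM of 6 astrocyte markers, mostly Slc1a3 and Slc1a2, was 2276 and 2208 in +/+ versus 624 and 1680 in Chd5-/- replicates 1 and 2, lower in both Chd5-/- samples. Of the 6, Gfap, S100b, Slc1a2 and Slc1a3 were lowest in Chd5-/- replicate 1, whereas Aldh1l1 and Aqp4 were lowest in +/+ replicate 1. In Chd5-/- replicate 2 only Slc1a3 was below both +/+ samples, and Aqp4, Gfap and Slc1a2 were highest there. The 4 choroid plexus markers found, mostly Otx2, summed to 119 TPM in Chd5-/- replicate 1 and to 18.4 to 37.4 TPM elsewhere, with Kl and Clic6 at 0.45 TPM or less in every sample. In Chd5-/- replicate 1 the choroid plexus gene Folr1 was at 18.48 TPM, against 0.00 to 0.24 TPM elsewhere, and the fibroblast genes Col3a1 and Dcn were at 7.41 and 4.17 TPM, against at most 0.06 TPM. The 7 mesenchymal and meningeal markers summed to 38.8 TPM there and to 5.74 to 20.0 TPM elsewhere, mostly Foxc1. Of these 7, Col1a1, Col1a2, Lum and Pdgfrb were at 0.37 TPM or less in every sample. The stem cell markers Sox2, Vim and Nes were present in every sample, at 60.9 TPM or more. Microglial and endothelial markers were near 0, with sums of 0.15 to 0.77 TPM. The 9 stem cell markers, mostly Fabp7 and Vim, summed to 7955 and 6526 TPM in +/+ versus 3527 and 5892 TPM in Chd5-/- replicates 1 and 2. Their sum was thus also lower in both Chd5-/- samples. The lowest single values were 0.99 TPM for Prom1, in +/+ replicate 1, and 1.16 TPM for Hes5, in Chd5-/- replicate 1. The 7 neuronal markers, nearly all Map2, summed to 372 to 798 TPM, and the 6 oligodendrocyte lineage markers to 178 to 264 TPM.

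In +/+ NSCs the receptors and Smad1 were well expressed and the ligands, apart from Bmp7, were not. Bmpr1a stood highest, at 193 ± 12.2 TPM (SD, n = 2 throughout), followed by Bmpr2 at 91.5 ± 6.22, Bmpr1b at 59.1 ± 3.27, Smad1 at 27.5 ± 0.530 and Bmp7 at 19.0 ± 2.02 TPM. The values of neighbours in this order did not overlap. Bmp2 (0.940 ± 0.354 TPM) and Bmp3 (0.475 ± 0.488 TPM) overlapped each other, Smad6 and Nog were both at 0.0850 ± 0.0212 TPM, and Bmp4 was listed at 0. In the Chd5-/- samples Bmpr1a (145 ± 5.85 TPM) and Bmpr2 (86.6 ± 13.8 TPM) kept the first places, and Bmp3 moved past Bmp7 to 29.7 ± 0.339 TPM. There the ranges of Bmpr2 and Bmpr1b overlapped, as did those of Bmpr1b and Smad1, and of Smad1 and Bmp3.

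**Figure D1:**
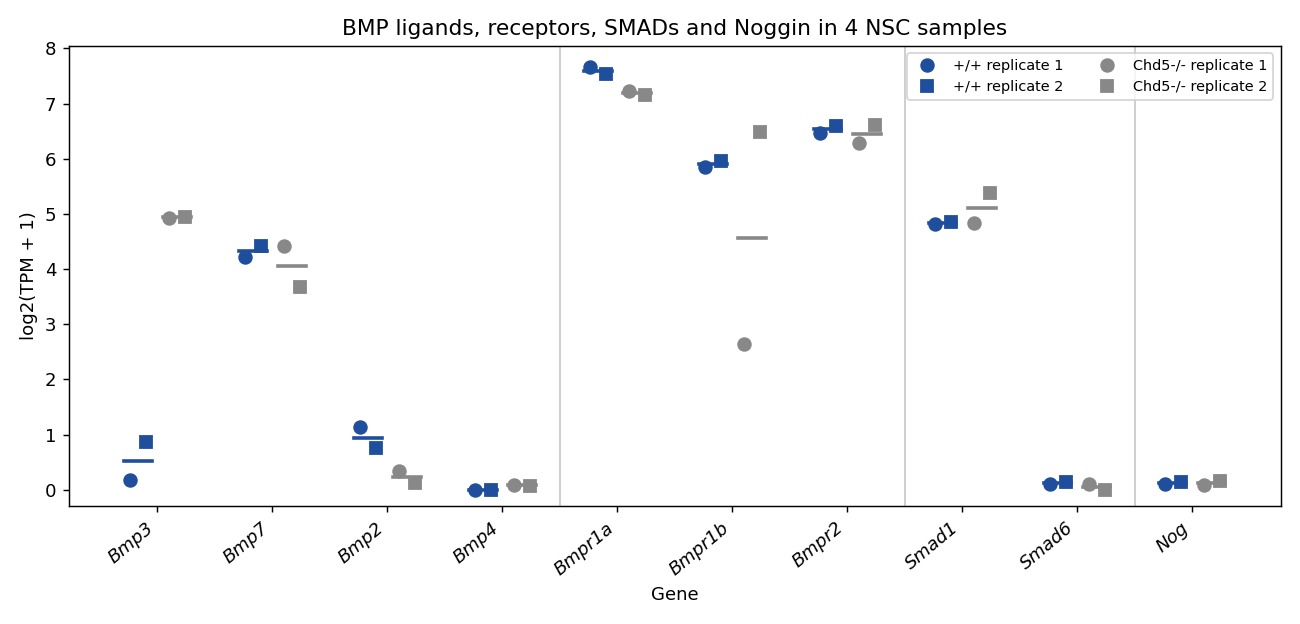
Levels of the 10 BMP genes as log2(TPM + 1) in each of the 4 NSC samples (blue, +/+; grey, Chd5-/-; circles, replicate 1; squares, replicate 2), with a line at each genotype mean. Bmp3 lies under 1 TPM in both +/+ samples and near 30 TPM in both Chd5-/- samples, whereas Bmpr1b lies at 5.20 TPM in Chd5-/- replicate 1 and at 87.97 TPM in replicate 2.

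Start regions are shown for Smad6, a gene near 0 TPM with many CG before its start, and for Bmpr1b, an expressed gene with few in the windows listed. They are the 250 bases before a RefSeq transcript start (GRCm38.p6), found for 6 of the 10 genes, namely Bmp4, Bmpr1a, Bmpr1b, Bmpr2, Smad1 and Smad6, and not for Bmp2, Bmp3, Bmp7 and Nog. Capitals mark each CG dinucleotide, the site of DNA methylation in mammals. The Smad6 window (chr9:64022060-64022309, minus strand) holds 27 CG, a number that 8.56% of all 32851 windows reach, in a gene near 0 TPM in every sample. RefSeq lists 3 starts for Bmpr1b, and the windows before them hold 1, 5 and 5 CG, against a median of 6 over all windows. The first (chr3:141982265-141982514) and the second (chr3:141931589-141931838) lie on the minus strand within introns of the annotated gene, and which start the cells used was not measured. The second window overlaps the third (chr3:141931421-141931670), so some CG count in both. The annotated gene begins at 142169425, before all 3 windows, and that start was not examined. The counts thus show no mismatch between CG and level for Bmpr1b. By comparison, the windows of Bmpr1a, Smad1, Bmpr2 and Bmp4 hold 36, 25, 22 and 11 CG. In the annotation used for the coordinates, exons of the same gene cover all 250 bases of the Bmpr2 window. They cover 141 bases of the Bmpr1a, 90 of the Smad1 and 103 of the third Bmpr1b window. These windows are thus partly or wholly transcribed sequence by that annotation. The sequence GGCGCC, a site that BMP-activated SMADs can bind, was found in the windows of Bmpr1a and Bmpr2 and in 9.59% of all windows. It reads the same on both strands.
Smad6: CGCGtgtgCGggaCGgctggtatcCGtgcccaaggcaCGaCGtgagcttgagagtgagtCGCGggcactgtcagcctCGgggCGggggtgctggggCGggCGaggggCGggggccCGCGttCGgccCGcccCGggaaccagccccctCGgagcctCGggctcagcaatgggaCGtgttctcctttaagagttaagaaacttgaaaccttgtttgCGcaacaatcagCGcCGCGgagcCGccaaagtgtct
Bmpr1b, first start: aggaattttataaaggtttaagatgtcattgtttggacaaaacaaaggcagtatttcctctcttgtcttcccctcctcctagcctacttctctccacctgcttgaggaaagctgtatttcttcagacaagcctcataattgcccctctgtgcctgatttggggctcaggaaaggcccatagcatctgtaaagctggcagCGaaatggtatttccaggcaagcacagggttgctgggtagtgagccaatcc
Bmpr1b, second start: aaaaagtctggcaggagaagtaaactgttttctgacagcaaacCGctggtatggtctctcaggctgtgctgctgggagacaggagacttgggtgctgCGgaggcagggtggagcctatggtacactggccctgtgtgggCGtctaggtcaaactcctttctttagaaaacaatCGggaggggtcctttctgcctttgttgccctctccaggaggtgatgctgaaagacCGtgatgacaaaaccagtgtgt

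Bmp3 was all but absent from +/+ NSCs and was the most abundant of the 4 ligand genes in Chd5-/- NSCs. In GRCm38 it spans 98854415 to 98884396 of chromosome 5 (plus strand). Its level was 0.13 and 0.82 TPM in +/+ versus 29.43 and 29.91 TPM in Chd5-/- NSCs. The genotypes did not overlap, and the Chd5-/- samples, which differed in many other genes, were within 0.02 of each other on the log2 scale. The ratio of means was 62.5, a value that rests on +/+ levels near 0. On the log2(TPM + 1) scale the difference was 4.42, the 6th highest of the 12576 rows averaging 1 TPM or more, a minimum that Bmp3 met through the Chd5-/- samples alone. As Bmp3 was picked for this difference, nothing is read from its rank. The difference lay between 4.07 and 4.76 when any 1 sample was left out.

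The rows whose levels over the 4 samples were nearest to those of Bmp3, by Euclidean distance of log2(TPM + 1) among rows of at least 1 TPM on average, were Tmem132b, Snora43, AK009067, Mab21l2 and Mir7-1, at distances of 0.92, 1.58, 1.87, 1.99 and 1.99. The nearest, Tmem132b, was at 0.49 and 0.48 TPM in +/+ versus 32.89 and 17.23 TPM in Chd5-/- NSCs. Snora43 and Mir7-1 are short RNA features, for which few reads can give a high TPM.

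The high level of Bmp3 was not seen in those neighbouring protein-coding genes that had values. Of the 3 annotated on each side, Fgf5, Prkg2 and Rasgef1b were in the table. Cfap299, the nearest before Bmp3 at 52.4 kb, was not found by name, nor were Gm11111 and Vamp9. Prkg2, a cGMP-dependent kinase gene 45.4 kb after Bmp3, was at 14.28 and 8.99 TPM in +/+ versus 3.27 and 7.06 TPM in Chd5-/- NSCs, in the opposite direction. Fgf5, 577 kb before it, stayed at 0.27 TPM or less in every sample. Rasgef1b, 333 kb after it, ranged from 1.05 to 4.27 TPM and overlapped between the genotypes.

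The other ligand genes did not share this pattern. Bmp7 (chromosome 2, 172868012 to 172940321, minus strand), the one ligand of the 4 with a clear level in +/+ cells, was at 17.59 and 20.45 TPM in +/+ versus 20.43 and 11.74 TPM in Chd5-/- NSCs. The genotypes overlapped, and the difference of -0.27 on the log2 scale had a 95% interval from -1.13 to 0.58 (limma, adjusted p = 0.641). It was -1.07, past the unadjusted threshold, with GC and length trends removed, and 0.10 without Chd5-/- replicate 2. Bmp2 (chromosome 2, 133552159 to 133562885, plus strand) was at 1.19 and 0.69 TPM in +/+ versus 0.26 and 0.09 TPM in Chd5-/- NSCs. Both Chd5-/- values were below both +/+ values, and the mean over the 4 samples was under the minimum of 1 TPM for testing. Bmp4 (chromosome 14, 46383520 to 46390669, minus strand) was listed at 0.00 TPM in both +/+ samples and at 0.06 and 0.05 TPM in Chd5-/- NSCs. Summed over the 4 ligands, the level was 18.9 and 22.0 TPM in +/+ versus 50.2 and 41.8 TPM in Chd5-/- NSCs. Bmp3 made up 0.687% and 3.73% of this sum in +/+ versus 58.6% and 71.6% in Chd5-/- NSCs. A further 6 BMP and GDF ligand genes in the table (Bmp5, Bmp6, Bmp8a, Bmp8b, Gdf5 and Gdf6) were at 0.45 TPM or less in every sample.

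A limma fit of log2(TPM + 1) covered the 12576 rows that averaged 1 TPM or more, of which 0.0557% passed an adjusted p of 0.05 and 24.1% an unadjusted one. The median difference of all rows was 0.34 as deposited. It lay between -0.05 and 0.13 after the other scalings or removal of trends with GC content and length. A difference near 0 thus lies below most other rows as deposited. Over the 11700 tested rows with a known GC content, difference and GC content had a Spearman correlation of 0.60. The cause of this trend was not tested. Of the 9 genes other than Bmp3, 5 were tested and 0 passed either threshold. Their median difference was -0.27. Only 1 of the 5 had genotypes that did not overlap, with Chd5-/- below, against 59.4% of all rows (46.3% with Chd5-/- above and 13% with Chd5-/- below).

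That gene was Bmpr1a (chromosome 14, 34410734 to 34503341, minus strand), which encodes the type I receptor also called ALK3. It was at 201.35 and 184.03 TPM in +/+ versus 149.29 and 141.02 TPM in Chd5-/- NSCs. Both Chd5-/- values were below both +/+ values, by -0.41 on the log2 scale (95% interval -0.93 to 0.12, adjusted p = 0.296). Relative to the median of all rows the difference was -0.74. After median-of-ratios scaling it was -0.82, and -0.64 after rescaling without the 20 most abundant rows, both past the unadjusted threshold. It missed that threshold after quantile normalization, at -0.50, and with GC and length trends removed, at -0.34.

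Bmpr1b (chromosome 3, 141837136 to 142169425, minus strand), which encodes the type I receptor ALK6, split the Chd5-/- samples. It was at 56.76 and 61.38 TPM in the +/+ samples, at 5.20 TPM in Chd5-/- replicate 1 and at 87.97 TPM in replicate 2. One Chd5-/- sample was thus below and the other above both +/+ samples, with a ratio of 16.9 between the Chd5-/- samples. A gap this large between the Chd5-/- samples was found in 0.469% of the rows tested. The mean difference of -1.35 (95% interval -4.42 to 1.71, adjusted p = 0.519) describes neither sample. Leaving out replicate 1 gave 0.57 and leaving out replicate 2 gave -3.28, each past the unadjusted threshold in a fit that takes the lone Chd5-/- sample to vary like the +/+ samples. Bmpr1b made up 22.0% and 25.0% of the summed TPM of Bmpr1a and Bmpr1b in the +/+ samples, and 3.37% and 38.4% in Chd5-/- replicates 1 and 2. The sample with low Bmpr1b had the lowest summed astrocyte markers, though Aldh1l1 and Aqp4 were not lowest there. It also had the lowest summed stem cell markers, though Egfr, Msi1, Nes and Prom1 were not lowest there. Folr1 and Otx2 were highest in this sample, whereas Kl and Clic6 were near 0. The part of these markers in this result was not tested.

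Bmpr2 (chromosome 1, 59763400 to 59879014, plus strand), the type II receptor gene, was at 87.09 and 95.89 TPM in +/+ versus 76.81 and 96.34 TPM in Chd5-/- NSCs. The +/+ values lay within the Chd5-/- range, and the difference was -0.09 (95% interval -0.67 to 0.50). Of the other receptors that BMPs use, Acvr1, the gene of the type I receptor ALK2, was at 15.43 and 18.81 TPM in +/+ versus 17.51 and 14.93 TPM in Chd5-/- NSCs. Acvr2a, an activin type II receptor gene, was at 25.01 and 27.89 TPM and at 27.15 and 20.87 TPM, and both genes overlapped between genotypes. Acvr2b, the gene of the other activin type II receptor, was at 0.04 and 0.00 TPM in +/+ versus 0.41 and 1.01 TPM in Chd5-/- NSCs, below the minimum mean. The endothelial receptor gene Acvrl1 was at 0.03 TPM or less.

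The SMAD genes of the intracellular steps overlapped between genotypes, which with 2 samples per genotype does not show equal levels. Smad1 (chromosome 8, 79338395 to 79399518, minus strand) was at 27.12 and 27.87 TPM in +/+ versus 27.69 and 40.79 TPM in Chd5-/- NSCs, a difference of 0.28 (95% interval -0.42 to 0.98). The lower Chd5-/- value fell between the +/+ values. Median-of-ratios scaling turned this difference to -0.12, and removal of GC and length trends to -0.24. Smad5, which acts alongside Smad1, was the most abundant of the 3 BMP SMAD genes at 109 ± 6.59 TPM in +/+ and 104 ± 22.3 TPM in Chd5-/- NSCs, and Smad4, the common partner, was at 77.4 ± 1.75 and 80.3 ± 11.5 TPM. Smad9 differed more within the +/+ genotype, at 1.94 and 11.71 TPM, than between the genotype means.

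The inhibitors that SMADs induce were scarcely expressed. Smad6 (chromosome 9, 63953076 to 64022059, minus strand), whose CG-rich start is printed above, was at 0.07 and 0.10 TPM in +/+ versus 0.07 and 0.00 TPM in Chd5-/- NSCs. Smad7 was at 0.31 to 0.77 TPM and Bambi, a decoy receptor gene, at 0.38 to 1.01 TPM over all 4 samples. Nog (chromosome 11, 89300638 to 89302332, minus strand) was at 0.07 and 0.10 TPM and at 0.06 and 0.11 TPM, with equal means. No difference of Smad6 or Nog could be shown at such levels. The other inhibitors of the list, among them Fkbp1a, which holds type I receptors inactive, at 294 ± 18.3 TPM in +/+ cells, were well above 1 TPM. Smurf1, a ubiquitin ligase that removes SMADs and receptors, was at 8.65 and 6.57 TPM in +/+ versus 14.24 and 13.08 TPM in Chd5-/- NSCs (difference 0.78, adjusted p = 0.184). It passed the unadjusted threshold in 4 of 16 alternatives, in none of those that left out 1 sample, and its difference was 0.03 with GC and length trends removed.

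Beyond the 10 genes, 59 further genes of the BMP pathway were listed by role, of which 55 were in the table and 33 were tested. With limma 0 of them passed the adjusted threshold (smallest adjusted p = 0.120). At an unadjusted p under 0.05, 4 were higher and 3 lower in Chd5-/- NSCs, which is 12.1% and 9.09% of the 33, against 21.9% and 2.27% of all rows. The 4 include Msx1, which was tested only because of its level in the Chd5-/- samples. The median difference of the 33 genes was 0.08, against 0.34 for all rows. The genotypes did not overlap in 45.5% of them, against 59.4% of all rows. The called genes depended on the scaling, namely 1 higher and 3 lower with median-of-ratios scaling but 0 higher and 4 lower with GC and length trends removed. Over all rows the calls at this threshold were 2748 higher and 285 lower as deposited. Median-of-ratios scaling gave 1391 higher and 1507 lower, and removing the trends gave 612 and 701.

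**Figure D2:**
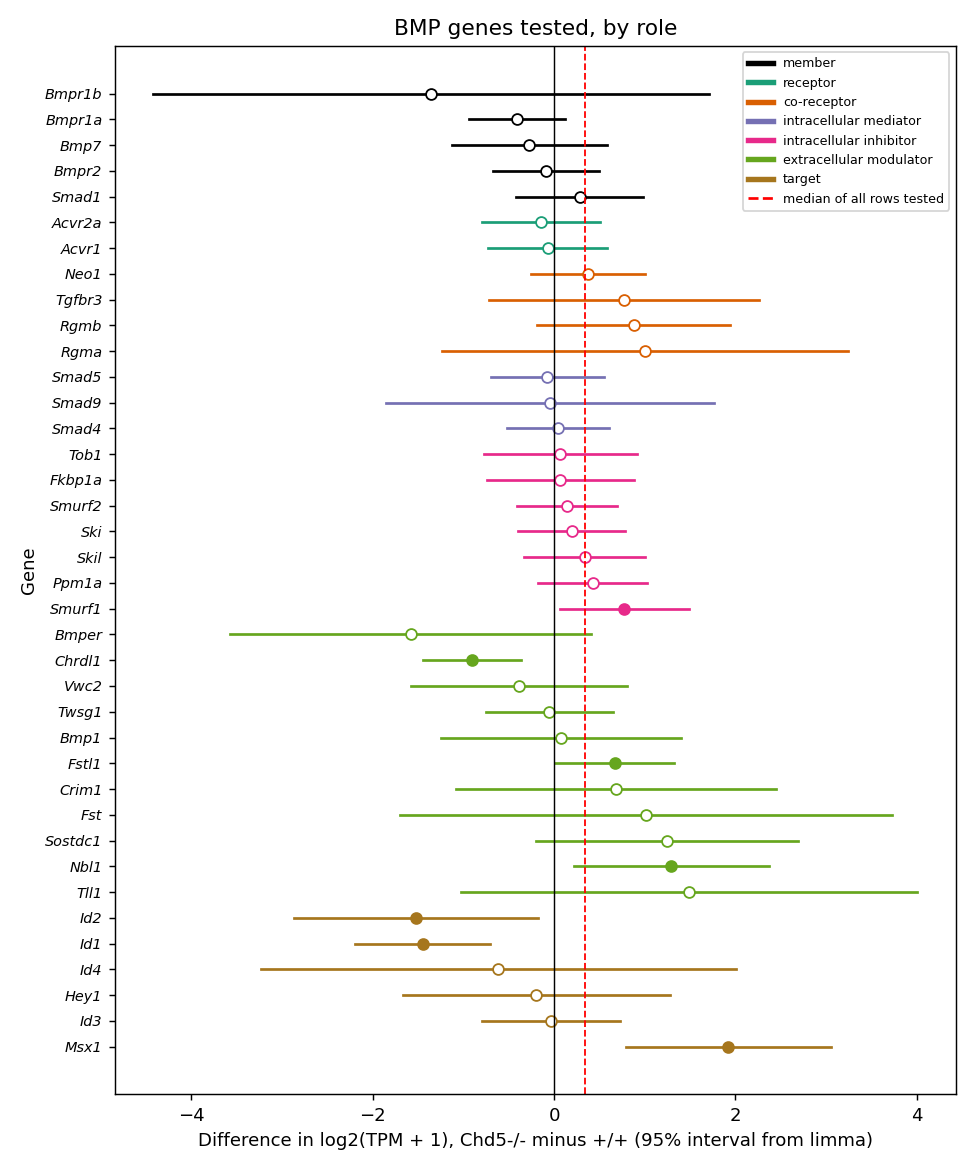
Difference in log2(TPM + 1), Chd5-/- minus +/+, with 95% intervals from limma (2 samples per genotype), for the 5 tested BMP genes other than Bmp3 and 33 further pathway genes, coloured by role. Filled points have an unadjusted p under 0.05, 0 pass the adjusted threshold, and the dashed red line is the median of all rows, 0.34. Msx1 (filled) and Tll1 were under 1 TPM in both +/+ samples and were tested only because of Chd5-/- levels. Their points and intervals are descriptions. Chrdl1, Id1 and Id2 are the filled points left of 0.

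Of the target genes, Id1 and Id2 were lower in both Chd5-/- samples and Id3 and Id4 overlapped. Id1, the classic direct target of BMP SMADs and an inhibitor of proneural factors, was at 45.84 and 30.35 TPM in +/+ versus 13.86 and 12.26 TPM in Chd5-/- NSCs. Both Chd5-/- samples were below both +/+ samples, a difference of -1.45 with a standard error of 0.29 (adjusted p = 0.120, and 0.0474 to 0.759 over 16 alternatives). It was past the unadjusted threshold in all 16 alternatives, with differences from -2.28 to -1.16.

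Id2, a related gene, was at 158.58 and 290.20 TPM in +/+ versus 46.27 and 118.02 TPM in Chd5-/- NSCs, again without overlap. Its difference was -1.52 with a standard error of 0.53 (adjusted p = 0.177, and 0.0274 to 0.790 over 16 alternatives). It missed the unadjusted threshold without +/+ replicate 2 (difference -1.09), without Chd5-/- replicate 1 (-0.86) and without a minimum TPM. Id3 overlapped, at 38.24 and 39.17 TPM in +/+ versus 29.57 and 48.27 TPM in Chd5-/- NSCs (difference -0.03). Id4, like Bmpr1b, split the Chd5-/- samples, at 0.80 and 15.36 TPM against 6.16 and 8.65 TPM in the +/+ samples. The summed level of the 4 Id genes was 249 and 368 TPM in +/+ versus 90.5 and 194 TPM in Chd5-/- NSCs. Summed astrocyte markers were likewise lower in both Chd5-/- samples and lowest in replicate 1, though not Aldh1l1 or Aqp4. In replicate 2 only Slc1a3 of these markers was below both +/+ samples, and Aqp4, Gfap and Slc1a2 were highest there. Summed stem cell markers, mostly Fabp7 and Vim, were also lower in both Chd5-/- samples. The part of these markers in this result was not tested.

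Msx1, a homeobox gene that BMPs induce in dorsal neural tissue, was higher in both Chd5-/- samples. It was at 0.22 and 0.61 TPM in +/+ versus 6.27 and 2.89 TPM in Chd5-/- NSCs, a difference of 1.92. It reached the minimum mean through the Chd5-/- samples alone and so had to differ, and its difference is given as a description. The difference was 0.96 with GC and length trends removed. Hey1, which is also a Notch target, was at 57.51 and 43.41 TPM in +/+ versus 23.64 and 79.28 TPM in Chd5-/- NSCs. Msx2 and Atoh8 were at 0.16 TPM or less throughout.

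**Figure D3:**
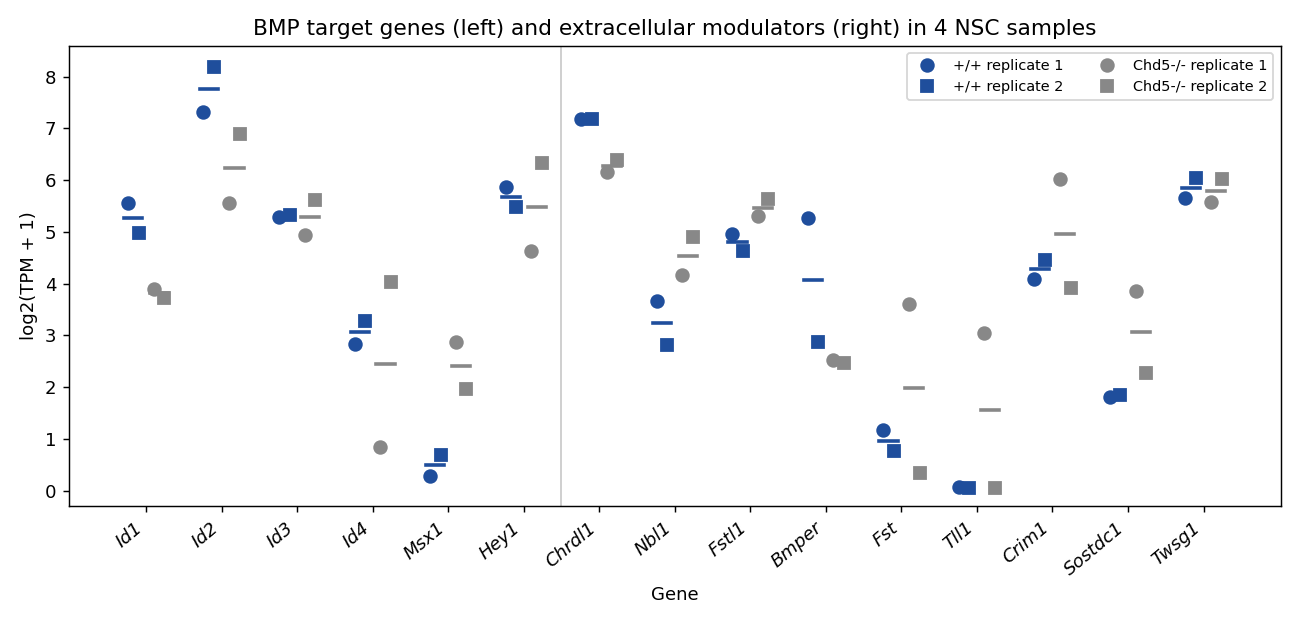
Levels of 6 BMP target genes (left of the line) and 9 genes of extracellular modulators that bind or process BMPs or are released with them (right) as log2(TPM + 1), with symbols as in the plot of the 10 BMP genes. Id1, Id2 and Chrdl1 lie lower in both Chd5-/- samples, and Fst, Tll1 and Crim1 are high in Chd5-/- replicate 1 alone.

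Among the genes of secreted BMP modulators, the most abundant was Chrdl1 (chordin-like 1, an antagonist made by astrocytes), at 144.50 and 143.88 TPM in +/+ versus 70.58 and 82.61 TPM in Chd5-/- NSCs. The genotypes were well apart, with a difference of -0.91 and a standard error of 0.21 (adjusted p = 0.123, and 0.0351 to 0.759 over 16 alternatives). It passed the unadjusted threshold in 14 of the 16 alternatives and missed it without +/+ replicate 1 or +/+ replicate 2, with differences from -1.32 to -0.80 over all. Summed astrocyte markers and summed stem cell markers were also lower in both Chd5-/- samples. In replicate 2, however, Slc1a3 was the only astrocyte marker below both +/+ samples, and Aqp4, Gfap and Slc1a2 were highest there. The part of these markers in this result was not tested. Bmper was lower in both Chd5-/- samples too, at 4.73 and 4.53 TPM, but the +/+ samples stood at 37.63 and 6.36 TPM (difference -1.58, adjusted p = 0.282).

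Nbl1, which encodes the antagonist DAN, was at 11.63 and 6.04 TPM in +/+ versus 16.85 and 29.02 TPM in Chd5-/- NSCs (difference 1.30, adjusted p = 0.166). Fstl1 was at 30.26 and 23.78 TPM and at 38.41 and 48.59 TPM (difference 0.67, adjusted p = 0.204). In neither gene did the genotypes overlap, and both were past the unadjusted threshold, in 10 of 16 alternatives for Nbl1 and in 6 of 16 for Fstl1. Both missed it with median-of-ratios scaling, quantile normalization or GC and length trends removed, where the lowest differences were 0.30 for Nbl1 (trends removed) and 0.26 for Fstl1 (median-of-ratios). Nbl1 also missed it without +/+ replicate 2 or Chd5-/- replicate 2, and Fstl1 without any of the samples other than Chd5-/- replicate 1. Twsg1, a chordin partner, overlapped at 46.43 to 64.72 TPM.

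A group of extracellular modulator genes was highest in Chd5-/- replicate 1. Fst, which encodes the activin and BMP antagonist follistatin, was at 11.25 TPM there and at 0.27 to 1.24 TPM in the other samples. The same sample held Tll1, a protease gene whose product cleaves chordin, at 7.29 TPM against at most 0.05 TPM, and Crim1 at 63.51 TPM against 14.05 to 21.07 TPM. Sostdc1 was at 13.57 TPM there and at 2.50 to 3.84 TPM in the others. The choroid plexus gene Folr1 and the fibroblast genes Col3a1 and Dcn were also highest in this sample. From the same marker lists Kl, Clic6, Col1a1, Col1a2, Lum and Pdgfrb were at 0.45 TPM or less in every sample. The part of these markers in these levels was not tested. Conversely, the co-receptor gene Rgma was at 77.19 TPM in Chd5-/- replicate 2 and at 11.02 to 17.47 TPM in the other samples. None of the 5 genes Fst, Tll1, Crim1, Sostdc1 and Rgma passed the unadjusted threshold with all samples in the fit.

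The activin and TGF-beta branch, which uses Smad2 and Smad3 and shares Smad4, was described in the same way. Of its 17 listed genes 16 were in the table and 12 were tested, of which 2 were higher and 0 lower at an unadjusted p under 0.05, or 16.7% and 0% against 21.9% and 2.27% of all rows, and 0 passed the adjusted threshold. The 2 genes were Gdf1, at 2.16 and 1.61 TPM in +/+ versus 4.76 and 7.03 TPM in Chd5-/- NSCs (adjusted p = 0.138), and Tgfb3, at 2.62 and 3.12 TPM and at 8.11 and 6.40 TPM (adjusted p = 0.142). The median difference of the 12 genes was 0.33, close to the 0.34 of all rows. Smad2 overlapped between genotypes, at 18.46 to 22.71 TPM, and Smad3 was at 21.74 and 22.38 TPM in +/+ versus 28.97 and 29.74 TPM in Chd5-/- NSCs (adjusted p = 0.332). Gdf11, a ligand known to limit progenitor number in neural tissue, was at 18.79 and 18.17 TPM and at 11.21 and 13.60 TPM (difference -0.54, adjusted p = 0.259).

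**Figure D4:**
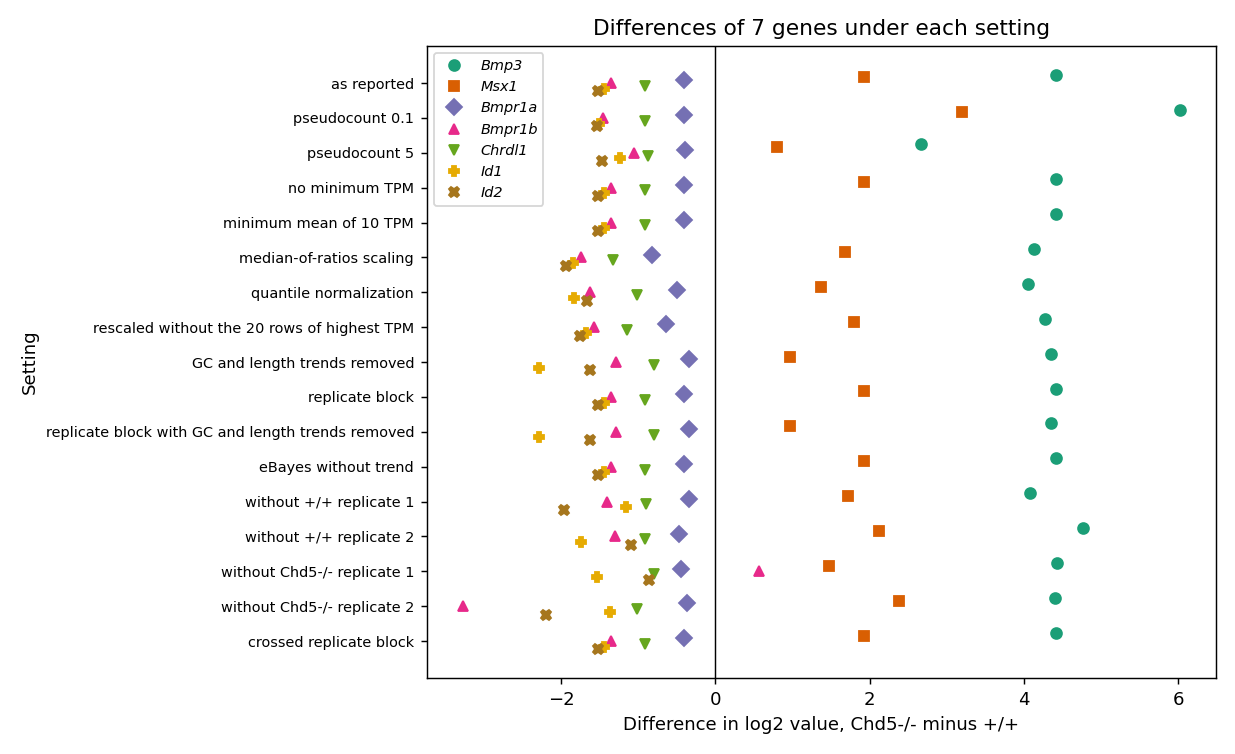
Difference between genotypes (Chd5-/- minus +/+, log2 scale) of 7 BMP pathway genes as reported and under each of 16 alternative settings. Bmpr1a, Chrdl1, Id1 and Id2 stay left of 0 in each setting in which they were tested. Bmpr1b is at 0.57 without Chd5-/- replicate 1 and at -3.28 without Chd5-/- replicate 2. Bmp3 and Msx1 stay right of 0, but Bmp3 was picked for its rise. Msx1 reached the minimum mean through the Chd5-/- samples alone, so nothing is read from either sign.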

How the data were processed

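RNA-seq was measured in 2 +/+ and 2 Chd5-/- NSC samples from stranded libraries of polyadenylated RNA. The authors deposited TPM values, and the submitters' processing notes name Bowtie2 2.2.3, RSEM 1.2.20 and mm10, without giving the order of steps. The gene annotation and the use of strand are not given in the sources used here. Every column was assigned by its name. Replicate numbers gave no pairing in the labels.

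Rows averaging 1 TPM or more were tested on log2(TPM + 1) with limma 3.58.1 in R 4.3.3 (eBayes with a trend, two-sided, Benjamini-Hochberg over all rows, threshold 0.05). The test was first tried on simulated data. The log2(TPM + 1) scale understates changes of low genes. Because TPM sums to a fixed total, changes in abundant rows shift all others, and the top 20 rows held 32.4% and 35.6% of the TPM in the +/+ and 21.6% and 22.8% in the Chd5-/- samples. An exact permutation of 2 against 2 samples cannot give a two-sided p below 0.333. Each sample is 1 culture.

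The 10 genes and all lists were chosen with earlier results of these data known. Pathway genes were named if they had an unadjusted p under 0.05 or at least 10 TPM in a genotype, with the 5 rows nearest to Bmp3 and 3 protein-coding genes on each side of it, and any other was named after its values were seen. Not all genes that qualify are given one by one. Coordinates, GC content and length of the longest transcript are from GENCODE M21 (GRCm38, found for 93.0% of tested rows), and start regions from RefSeq. The fit was repeated with other pseudocounts (0.1, 5), without a minimum or with 10 TPM, with 3 other scalings, after loess (span 0.5) correction for GC and length, with a replicate block, with eBayes untrended, and without each sample in turn. Python 3.11.15, pandas 2.3.3, numpy 2.4.6, scipy 1.17.1 and matplotlib 3.10.9 were used.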

Additional observations from a re-analysis of the deposited data

How the results depend on the processing

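Bmp3 differed by 4.42 on the log2 scale as reported, by 6.02 with a pseudocount of 0.1, 2.67 with 5, and 4.05 after quantile normalization. With each sample left out it lay between 4.07 and 4.76. Rows past the adjusted threshold numbered 7 as reported, 4 with a pseudocount of 0.1, 0 without a minimum TPM, 1 on quantile-normalized values and 3 once GC and length trends were taken out. With 1 sample left out the number ranged from 0 (without either +/+ sample) to 1247 (without Chd5-/- replicate 1, and 1086 without replicate 2), where the lone Chd5-/- sample is assumed to vary like the +/+ samples. At an unadjusted p under 0.05 the number over all rows was 3033 as reported, 1758 with a minimum of 10 TPM, 1313 with the trends removed, and 804 to 4436 with 1 sample left out.

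Of the other 9 BMP genes, 0 passed the unadjusted threshold as reported. One gene (1) did without a minimum TPM (Bmp2, adjusted p = 0.200), with median-of-ratios values (Bmpr1a), after rescaling without the 20 most abundant rows (Bmpr1a) and with the trends removed (Bmp7, difference -1.07), and 0 to 1 with a sample left out, Bmpr1b without either Chd5-/- sample. Of the pathway genes, 7 passed as reported, 4 with median-of-ratios values, 4 without the trends and 3 to 14 with a sample left out, with 3 without either +/+ sample and 14 without Chd5-/- replicate 2. The rows tested were not chosen anew when a sample was left out. The 14 genes include Fst and Tll1, tested only because of their levels in Chd5-/- replicate 1 (11.25 and 7.29 TPM). They also include Msx1, tested only because of the Chd5-/- samples. These calls were thus largely fixed in advance, and nothing is read from the count of 14. The median difference of the pathway genes, 0.08 as reported, became -0.32 with median-of-ratios values and -0.076 on quantile-normalized values. It became -0.15 on rescaled values and -0.057 without the trends, blocked or not. Smad1 changed sign to -0.12 with median-of-ratios values and to -0.24 without the trends, blocked or not. Leaving out 1 sample changed the sign of Bmp7, Bmpr1b and Bmpr2, whose ranges were -0.65 to 0.10, -3.28 to 0.57 and -0.25 to 0.075. The causes were not tested.

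With the replicate number as a block, 0 rows passed the adjusted threshold, also with the trends removed, and 2289 and 865 the unadjusted one. Deviations of same-numbered samples had a correlation of -0.15, so the block has no support as a pairing. Chosen after seeing the data, the crossed pairing called 5 rows at the adjusted and 3092 at the unadjusted threshold. Depth could not be read from TPM, so levels near 0, such as those of Bmp4, Smad6 and Nog, cannot be told from absence.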

Other observations

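The rows nearest to Bmpr1b over the 4 samples, by the distance used for Bmp3, were Pcdh9, AK086355, Omg, Kcnd2 and Pnp. This comparison was added after the split between the Chd5-/- samples had been seen. Omg, the gene of oligodendrocyte-myelin glycoprotein, was at 59.45 and 41.32 TPM in the +/+ samples, at 6.98 TPM in Chd5-/- replicate 1 and at 189.51 TPM in Chd5-/- replicate 2. Pcdh9, a protocadherin gene, was at 37.75 and 48.55 TPM in +/+ versus 8.53 and 56.24 TPM in Chd5-/- NSCs. Gfap, the astrocyte filament gene, was at 13.89 and 14.31 TPM in +/+ versus 0.71 and 19.66 TPM in Chd5-/- NSCs. In Gfap, as in Bmpr1b and Id4, the lowest value was that of Chd5-/- replicate 1 and the highest that of Chd5-/- replicate 2. Of the other astrocyte markers, Slc1a2 shared this pattern and Aldh1l1, Aqp4, S100b and Slc1a3 did not. Omg and Pcdh9 shared it too, but they were picked for their likeness to Bmpr1b, so nothing is read from that. Pnp differed in that its highest value, 86.27 TPM, was in +/+ replicate 1. The stem cell marker gene Prom1 was at 45.27 TPM in Chd5-/- replicate 1 and at 0.99 to 4.15 TPM in the other samples. Of the other stem cell markers, Nes was also highest in that sample, whereas Fabp7, Hes5, Pax6, Sox2 and Vim were lowest there.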
